A study of Mus musculus with 6 samples.

Results

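The translation initiation factor genes of B16F10 cells, an established line of mouse melanoma cells, were taken as all table rows whose symbol begins with Eif and a digit from 1 to 6. The Eif2ak kinases (4 rows) and symbols marked -ps (1 row) were left out. These criteria gave 68 genes of 27179. RNA had been sequenced from 6 samples, of which 3 were treated for 6 h with 0.01% OLO (olive oil) and 3 for 6 h with 0.01% OZO (the same kind of oil after exposure to ozone). The labels give the genotype of both groups as WT. The level used here was the authors' deposited mean log2 CPM over all 6 libraries, so each value joins OLO- and OZO-treated cells. CPM is the read count of a gene scaled to a fixed library total, the usual unit for comparing libraries of unequal depth. Because the single libraries were not analysed here, no value has a spread between samples, no difference between OZO and OLO was tested, and differences between genes are descriptions without a test.

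Translation initiation brings the small ribosomal subunit, the initiator tRNA and the mRNA together at the start codon. eIF2 delivers the initiator tRNA in its GTP-bound form and eIF2B recharges it, while eIF3 holds the small subunit and links it to the mRNA. The cap of the mRNA is bound by eIF4E, which joins the scaffold eIF4G and the RNA helicase eIF4A. eIF1, eIF1A and eIF5 govern the choice of the start codon, and eIF5B then joins the large subunit. Proteins that bind eIF4E keep it from eIF4G, and they are released when mTORC1 phosphorylates them.

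Some members are so alike that short reads can hardly separate them, and the following stretches show where they can and cannot. In each pair the first 120 coding bases are printed 5′ to 3′, and capitals mark the bases that differ from the other gene of the pair. The sequences are those of GENCODE release M21 (GRCm38).
Eif2s3x, X chromosome: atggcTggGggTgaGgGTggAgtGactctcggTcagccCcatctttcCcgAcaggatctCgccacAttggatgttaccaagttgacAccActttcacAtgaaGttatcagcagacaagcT
Eif2s3y, Y chromosome: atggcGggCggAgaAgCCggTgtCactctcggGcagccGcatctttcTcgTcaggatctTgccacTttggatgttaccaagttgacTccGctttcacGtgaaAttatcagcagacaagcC
Eif1, chromosome 11: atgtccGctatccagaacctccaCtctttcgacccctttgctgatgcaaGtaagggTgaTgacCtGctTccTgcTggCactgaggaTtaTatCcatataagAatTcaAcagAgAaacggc
Eif1b, chromosome 9: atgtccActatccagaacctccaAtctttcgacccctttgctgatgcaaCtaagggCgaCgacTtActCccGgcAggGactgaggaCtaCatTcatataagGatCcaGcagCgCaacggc
Eif1ad7, chromosome 12: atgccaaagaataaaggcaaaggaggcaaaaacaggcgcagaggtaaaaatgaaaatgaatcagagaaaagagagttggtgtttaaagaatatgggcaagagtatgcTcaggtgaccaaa
Eif1ad8, chromosome 12: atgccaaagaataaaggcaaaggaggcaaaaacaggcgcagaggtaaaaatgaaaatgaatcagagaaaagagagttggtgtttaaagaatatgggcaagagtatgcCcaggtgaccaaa
Over their whole coding sequence of 1416 bases, Eif2s3x and Eif2s3y differed at 194 bases. Eif1 and Eif1b differed at 64 of 339. Eif1ad7 and Eif1ad8 differed at 8 of 432. Of the whole transcript, 96.0% of Eif1ad7 but 23.2% of Eif1ad8 matched transcripts of other genes over at least 150 bases at 97% identity, so the value of Eif1ad7 is the less certain one.

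The members fell into a set with high levels and one with almost no assigned reads. At least 1 CPM was reached by 50 of the 68 genes, against 11878 of all 27179 rows, and the median of the 50 was 6.999 on the log2 CPM scale. The median of the 11878 genes with at least 1 CPM was 4.98, and 46 members lay above it. Above the median of all 21154 genes with reads, 1.45, lay 50 members. None of the members lay between the lowest of the 50, Eif4ebp3 with 3.63, and the highest of the other 18, Eif2s3y with -2.17. By log2 CPM, 26 members were at or above the 90th percentile of the genes with reads and 10 at or above the 99th. Summed over the members, CPM came to 1.56% of the sum over all genes with reads. Eif4g2, Eif3a, Eif5, Eif4g1 and Eif1 held 45.1% of that member sum, and Eif4g2 alone 17.1%. For scale, 86 genes with ribosomal protein symbols held 3.17% of the sum over all genes.

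**Figure D1:**
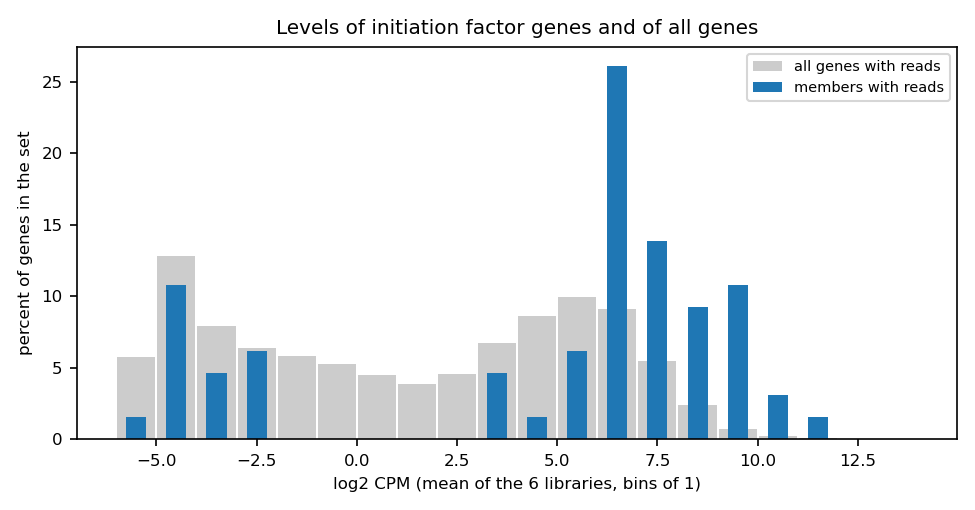
Distribution of the authors' mean log2 CPM in bins of 1, as the percentage of the 21154 genes with reads (grey) and of the 65 initiation factor genes with reads (blue). The blue bars leave a gap between -2.17 and 3.63, and the highest of them holds 26.2% of the members with reads.

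Depth was ample for the expressed members. Library size, taken as the geometric mean after the authors' scaling and read from the genes without reads, was 19641945, so 1 CPM stood for 19.6 reads per library. Among the 50 genes the geometric mean of reads per library ran from 243 for Eif4ebp3 to 51141 for Eif4g2. As a check of the cell type, the 7 melanocyte markers (Mlana, Pmel, Tyr, Tyrp1, Dct, Mitf and Sox10) had log2 CPM values from 6.76 to 12.78. Keratinocyte markers were at or next to no reads in all 3 cases, leukocyte markers reached -1.88 at most, and of the 6 fibroblast and endothelial markers the highest was Col1a1 with 0.76.

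Levels of different genes were compared per kilobase of the union of a gene's exons, as log2 CPM per kb, which could be computed for 63 members. The choice of length matters, since the gene-level average used here does not show which transcript was read. Ratios below are therefore followed by their range over the union of exons, the longest transcript, the median transcript and the coding length.

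Of the 5 genes for start codon selection, Eif1 and Eif5 had the highest levels by log2 CPM per kb of the union of exons. Eif1 encodes the factor that keeps the scanning complex open until a start codon is met. It lies on chromosome 11 of GRCm38 from 100319885 to 100322096, had a log2 CPM of 9.99, and with 8.92 log2 CPM per kb was the highest member on this scale. Its paralogue Eif1b was at 4.89 log2 CPM per kb, and Eif1 exceeded it 16.4-fold (16.4 to 45.4). Eif5, whose product makes eIF2 hydrolyse its GTP, had a log2 CPM of 10.11 and 7.34 log2 CPM per kb. The gene lies on chromosome 12 from 111538016 to 111546752. Eif1a and Eif1ax both encode eIF1A, and their values were 4.79 and 3.82 log2 CPM per kb. Their ratio of 1.95 ran from 0.875 to 2.79 over the lengths, so that the order of these 2 genes was not settled.

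The transcripts of Eif1 and Eif1b were joined by no alignment of at least 150 bases at 97% identity. Eif1 did share 25.9% of its transcript with 4 annotated pseudogenes. The part of these copies in its level was not tested.

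The subunits of eIF2 were expressed together, apart from the copy on the Y chromosome. Eif2s2, the beta subunit, had 6.27 log2 CPM per kb, Eif2s3x, the gamma subunit, 5.93, and Eif2s1, the alpha subunit that stress kinases phosphorylate, 5.48. Eif2s2 exceeded Eif2s1 under each of the lengths, by 1.73-fold (1.53 to 2.25). Eif2s3x changed places with the length against both Eif2s1 and Eif2s2 (Eif2s2 over Eif2s3x 1.27, from 0.976 to 3.21). Eif2s3x lies on the X chromosome from 94188707 to 94212862 and had a mean of 232 CPM. Eif2s3y, from 1010543 to 1028847 on the Y chromosome, had 0.222 CPM, which stood for 3.87 reads per library. Per kilobase, Eif2s3x was 1140-fold higher (745 to 1140). With 86.3% identity of coding bases and differences spread along the stretch printed above, no alignment of 150 bases at 97% identity joined their transcripts. With pseudogenes, however, Eif2s3x shared 37.0% of its transcript (Gm2223) and Eif2s2 39.0% (Gm9892), and the part of these copies in their levels was not tested.

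All 5 genes of eIF2B, the exchange factor that phosphorylated eIF2 blocks, lay below all 3 expressed eIF2 genes under each of the lengths. By the union of exons Eif2b5, which encodes the catalytic epsilon subunit, led with 5.19 log2 CPM per kb, followed by Eif2b1 with 4.91 and Eif2b2 with 4.62. Under each of the other lengths Eif2b1 was above Eif2b5 (6.41 against 5.46 by coding length), so Eif2b5 was not the settled highest gene. Eif2b4 and Eif2b3 were lowest, with 3.33 and 2.55. The median of the eIF2 genes was 2.48 times that of the eIF2B genes (2.25 to 5.33). Eif2a and Eif2d, which can bring initiator tRNA to the ribosome without eIF2, had 4.18 and 3.18 log2 CPM per kb. The 4 eIF2 kinase genes outside the set ranged from 2.89 (Eif2ak4) to 4.28 (Eif2ak2) log2 CPM per kb, and the phosphatase genes from 5.47 (Ppp1r15a) to 6.58 (Ppp1ca).

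**Figure D2:**
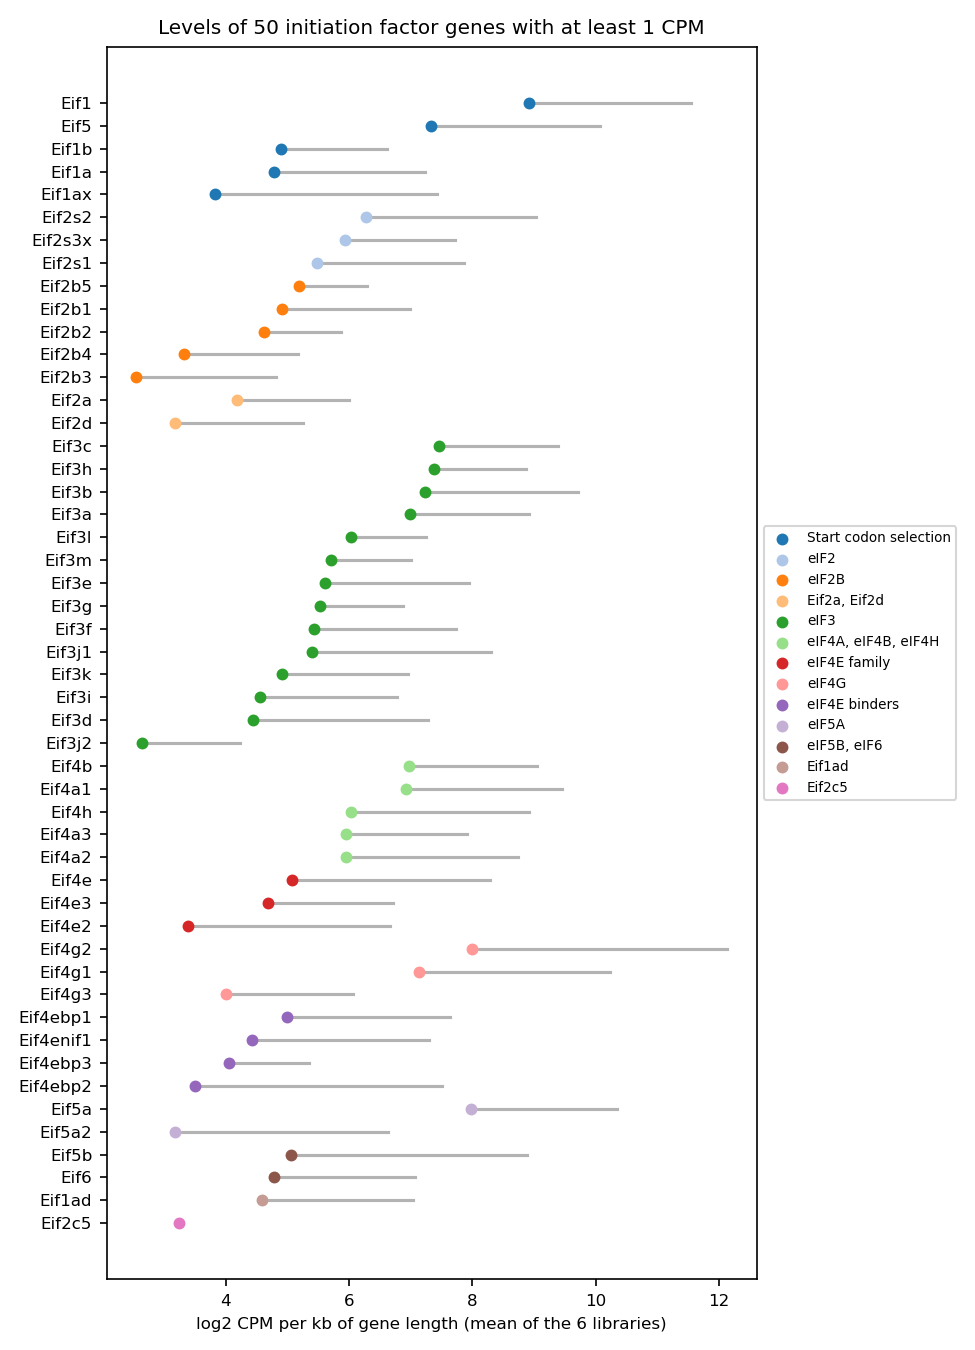
Level of each of the 50 members with at least 1 CPM, as log2 CPM per kb over the union of exons (points, coloured by role), with a grey line over the range of the 4 gene lengths; Eif2c5 has no coding length. Eif1 (8.92), Eif4g2 (8.001) and Eif5a (7.99) are furthest to the right, and Eif2b3 (2.55) and Eif3j2 (2.63) furthest to the left.

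eIF3, the largest initiation factor, contributed 14 genes, all of them with at least 1 CPM of assigned reads. Their median was 5.57 log2 CPM per kb and their SD across genes 1.33. Eif3c (7.46), Eif3h (7.37), Eif3b (7.24) and Eif3a (6.98) formed an upper set on this scale. Eif3a, Eif3b and Eif3c encode large subunits of the complex. Eif3a had the highest log2 CPM of the 14 genes, 10.11, and lies on chromosome 19 from 60761117 to 60790658. Next came Eif3l with 6.02, Eif3m with 5.71, Eif3e with 5.61, Eif3g with 5.54, Eif3f with 5.43 and Eif3j1 with 5.40 log2 CPM per kb. Eif3k (4.92), Eif3i (4.56) and Eif3d (4.44), whose product can bind the cap of some mRNAs, followed, and Eif3j2 was lowest with 2.63 log2 CPM per kb.

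The length moved single subunits within this order. Eif3a and Eif3h kept a place among the first 4 of the 14 under each length, and Eif3i was always in place 12 or 13. Eif3j1 moved between place 1, by coding length, and place 13, by the median transcript. Eif3j2 was last throughout. Eif3j1 exceeded it 6.82-fold (6.82 to 16.8), but the coding sequences of the pair were 99.2% identical and 100% of the Eif3j2 transcript matched Eif3j1. Of the Eif3j1 transcript, 60.6% matched other genes (Eif3j2, Spg11 or Gm3650) and the rest matched none. The values of both genes are therefore uncertain, and the part of shared reads in them was not tested. Eif3m also shared 87.7% of its transcript with a pseudogene.

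**Figure D3:**
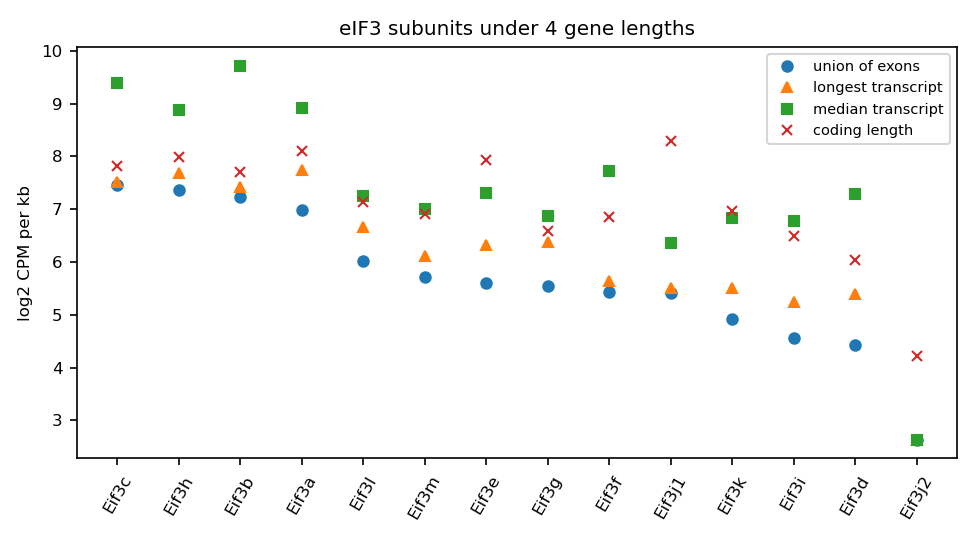
Levels of the 14 eIF3 subunit genes as log2 CPM per kb, ordered by the union of exons, with 1 symbol for each of the 4 gene lengths. Eif3a, Eif3b, Eif3c and Eif3h lie between 6.98 and 7.46 by the union of exons, and Eif3j2 is lowest under each length.

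In the group around the helicase eIF4A, Eif4b and Eif4a1 had nearly the same level by the union of exons, 6.97 and 6.93 log2 CPM per kb. Under each of the other lengths Eif4a1 was the higher one (8.76 against 8.26 by coding length). Eif4b and Eif4h (6.02) encode cofactors that stimulate the helicase. The order of these cofactors reversed with the coding length (Eif4b over Eif4h 1.93, from 0.631 to 2.70). Eif4a1 exceeded its close relative Eif4a2 (5.95) under each length, by 1.97-fold (1.37 to 1.97). Eif4a3, a helicase of the exon junction complex rather than of initiation, was also at 5.95, and the order of Eif4a2 and Eif4a3 changed with the length. Its retrocopy Eif4a3l1, with 96.2% identical coding bases, had no read in any library. A total of 0 reads in 6 libraries allows up to 0.0255 CPM of assigned reads, for counting error only. Because 86.5% of the Eif4a3l1 transcript matched Eif4a3 or Gm5580, and the handling of reads with several matches is not given in the sources used here, this is no limit on its expression. Eif4a1 shared 68.7% of its transcript with the pseudogene Eif4a-ps4. The role list held 1 further gene, Eif4a3l2, for which no row was found.

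Eif4g2 had the highest log2 CPM of all members, 11.35. It encodes a relative of eIF4G that lacks the eIF4E-binding part and lies on chromosome 7 from 111067750 to 111083030. Its annotated coding sequence does not open with ATG, and its first 30 coding bases are shown because of that, with the first codon in capitals.
Eif4g2: GTGgagagtgcgattgcagaagggggtgct
With 8.001 log2 CPM per kb it exceeded Eif4g1 (7.13), the main scaffold, by 1.83-fold (1.79 to 4.49). Eif4g1 in turn exceeded Eif4g3 (4.01) 8.70-fold (6.32 to 18.0). The order of the eIF4G genes was thus the same under each length.

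Among the cap-binding proteins Eif4e was highest, with 5.08 log2 CPM per kb against 4.69 for Eif4e3 and 3.39 for Eif4e2. Eif4e2 encodes a cap-binding protein that represses translation. Eif4e exceeded Eif4e2 3.23-fold (1.80 to 5.51) and Eif4e3 1.31-fold (1.31 to 9.92). Eif4e1b, known from oocytes, held between 4 and 10 reads in all 6 libraries together. By log2 CPM, Eif4e (7.66) stood below Eif4a1 (9.04) and Eif4g1 (10.00). Per kilobase it was 3.601-fold below Eif4a1 (1.39 to 4.09), whereas its ratio to Eif4g1 reversed with the coding length (Eif4g1 over Eif4e 4.15, from 0.685 to 4.71).

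The genes for eIF4E-binding proteins all reached at least 1 CPM of assigned reads. Eif4ebp1 had 4.99, Eif4ebp2 3.50 and Eif4ebp3 4.06 log2 CPM per kb. The order of the last 2 turned with the length, since Eif4ebp2 over Eif4ebp3 ran from 0.681 to 4.46, and by log2 CPM Eif4ebp2 was the higher one (6.03 against 3.63). Eif4ebp1 and Eif4ebp2 had nearly equal log2 CPM, 6.13 and 6.03, and most of their distance per kilobase came from the longer exons of Eif4ebp2: the ratio was 2.81 but only 1.09 by coding length. Eif4ebp3 shared 67.7% of its transcript with an overlapping gene model, and its value is uncertain for that reason. Eif4e itself exceeded Eif4ebp1 by 1.06-fold (1.06 to 5.12). Eif4enif1, which carries eIF4E into the nucleus, was at 4.42 log2 CPM per kb.

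Eif5a, the factor modified to hypusine that eases peptide bond formation, had 7.99 log2 CPM per kb and 603 CPM. It lies on chromosome 11 from 69916714 to 69921958 and exceeded Eif5a2 (3.18) by 13.2-fold to 52.0-fold over the lengths. The coding bases of the pair were 72.3% identical, and Eif5a shared 33.9% of its transcript with the pseudogene Eif5al3-ps. The hypusine enzymes, from the list of partners, were modest by comparison, with 3.08 for Dhps and 2.50 for Dohh. Eif5b, the GTPase of subunit joining, had 5.06 log2 CPM per kb, and Eif6, which keeps the large subunit from joining too early, 4.78.

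The remaining members share the name more than the function. Eif1ad, a protein of ribosome maturation with an eIF1A domain, had 4.58 log2 CPM per kb and 66.9 CPM. The 15 numbered Eif1ad genes were all under 1 CPM, and the highest of them, Eif1ad7, had 0.199 CPM. Of these 15, 10 had under 1 read per library by the geometric mean, and Eif1ad5 and Eif1ad9 had no read in any library. From the averages, Eif1ad3 held 1 read in all, Eif1ad11 held 2, Eif1ad19 held 5 and Eif1ad14 between 2 and 4. GENCODE M21 gave a position for 10 of the 15, all on chromosome 12 between 87514316 and 88274500. The RefSeq starts of Eif1ad13, Eif1ad5 and Eif1ad9, which had no match there, were on chromosome 12 as well (GRCm38.p6), that of Eif1ad9 outside this interval at 88323832. Coding identity among those 10 was between 96.3% and 100% over 45 pairs, against 43.9% to 46.7% with Eif1ad. The share of the transcript that matched other genes ran from 23.2% for Eif1ad8 to 100% for several of the 10, and how reads that match several copies were counted is not given in the sources used here. Eif2c5 carries the former name of the Argonaute family, is annotated as a long noncoding RNA on the X chromosome, and had 3.24 log2 CPM per kb.

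A terminal oligopyrimidine (TOP) tract, a C followed by pyrimidines at the very start of an mRNA, marks many mRNAs of the translation machinery and puts them under control of mTORC1. It was searched on the sense strand at the annotated RefSeq starts (GRCm38.p6), as a C with at least 4 pyrimidines after it. Starts were found for 47 members. A tract was present in 3 of them (6.38%), against 813 of the 27025 genes with an entry (3.01%). The 3 include Eif2c5, which is annotated as a long noncoding RNA and not as an mRNA. Eif2b5 came next, with a run of 4 pyrimidines. These 3 and, for contrast, Eif1 and Eif4a1 are printed with the first 20 bases and the opening run of pyrimidines in capitals.
Eif3f, chr7:108934415-108934434, plus strand: CTCTCTTTCTCggcaagatg
Eif2s3x, chrX:94212632-94212651, minus strand: CTTTTCTCTCCgagcaagat
Eif2c5, chrX:140776199-140776218, plus strand: CCCCCCTCCaggaccaagac
Eif1, chr11:100319949-100319968, plus strand: gggcggctatataagtgaat
Eif4a1, chr11:69672404-69672423, minus strand: gtcgagttgcagagcgccgg
Eif3f and Eif2s3x, each with a run of 11 pyrimidines, lay at 5.43 and 5.93 log2 CPM per kb, inside the range of the other expressed members. An annotated start can miss the one used in these cells, so a gene without a match here may still have a tract.

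Small nucleolar RNA genes lay inside 6 members, 13 genes in all. Eif4a2 held 5 of them, among them Snord2 and Snora81, and Eif4a1 held 3. Eif3a held 2, and Eif5, Eif4g1 and Eif4g2 held 1 each, including Snora28 in Eif5 and Snord66 in Eif4g1. Percentiles of log2 CPM among the 6 hosts ran from 97.8 for Eif4a2 to 99.9 for Eif4g2. High levels were not particular to hosts, since 21 members in all were at or above the 95th percentile, and the share of hosts among all genes was not computed.

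Of the other genes of the pathway, all 34 on the list of partners reached at least 1 CPM. Pabpc1, the poly(A)-binding protein that joins eIF4G, had 8.48 log2 CPM per kb. Larp1, which binds TOP mRNAs, was at 5.59, and the kinases of eIF4E, Mknk2 and Mknk1, at 5.21 and 2.38. The elongation factors Eef1a1 (11.33) and Eef2 (8.71) were the highest partners, and Eef1a1 was above all 63 members with a length. Rps6kb2, a kinase for ribosomal protein S6, was lowest with 1.05 log2 CPM per kb.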

How the data were processed

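RNA of B16F10 cells treated with OLO or OZO (3 libraries each) was sequenced from directional libraries. According to the study's methods and processing notes, the authors aligned reads to mm10 with HISAT2 (2.1.0), counted them with featureCounts (2.1.1) and compared the groups with limma-voom (3.58.1). The strand setting and the handling of reads with several matches are not given in the sources used here. The deposited table holds the average log2 CPM over all libraries, which was used, and 5 columns of the authors' own comparison of OZO with OLO (log2 fold change, moderated statistic, p-value, adjusted p-value and log odds), which were not used. No value of a single library was analysed, so the planned test of OZO against OLO was not run.

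Genes without reads share the lowest average. With the 0.5 reads that voom adds, that value gave the geometric mean library size. The distance of a gene's average from it stands for a product of odd whole numbers over the 6 libraries. For weakly read genes this product was odd and whole in 4611 of 4611 cases (tolerance 0.01). Read totals were taken from its factors. A range of read totals is given where several sets of counts fit an average. Tested on simulated data for 5000 genes, the same steps gave back 100% of the size put in. They gave back the product, not the single reads, for 100% of 1496 weakly read genes. The simulated averages were built with the formula that these steps invert, so this checked the arithmetic only. Percentiles are among the 21154 genes with reads. Exons, positions and transcripts came from GENCODE M21, matched by Ensembl identifier or symbol, for 63 members and 25321 rows. Transcripts were aligned with BLAST (2.17.0) and coding bases with Biopython (1.88), and identity is given over the longer coding sequence. Every member with reads was eligible to be named, grouped by role. The members and lists were chosen with earlier results of these data known.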

Additional observations from a re-analysis of the deposited data

How the results depend on the processing

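No paired analysis was possible because only 1 pooled average per gene was used. Leaving out a sample, a replicate block, another normalization and another pseudocount therefore were not run for the difference between OZO and OLO. The planned check by protein identity was not run, and identity of coding bases took its place. The 50 members with at least 1 CPM were also those with at least 10 reads per library, in number. The number above the median was 50 against all rows or per kilobase, and 46 against genes with at least 1 CPM. Shorter lengths raise every level per kilobase by construction. The median over all members was 4.78 log2 CPM per kb by the union of exons, 5.21 by the longest transcript, 6.28 by the median transcript and 6.66 by coding length, and 5.07 for members with at least 1 CPM. For eIF3 it was 5.57, 6.21, 7.27 and 7.04, and 5.61 without Eif3j2. The SD across eIF3 genes was 1.33, 1.35, 1.73 and 1.07, and 1.05 without Eif3j2. The limits to 1 CPM, to members without a near copy and without Eif3j2 were chosen after seeing the data. Without the 14 members that have a near copy among the members the median over all members was 4.99, and without the 0.5 reads of voom it stayed at 4.78. Depth limits only the 18 members under 1 CPM.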
